A study of Homo sapiens with 4 samples.

Results

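Transcripts for storing, importing, exporting and sensing iron were followed on 4 microarrays of Nalm-6, a line of human pre-B leukemia cells. The genes were the ferritin chains FTH1 and FTL, the ferritin receptor NCOA4, the importers TFRC and SLC11A2, the exporter SLC40A1, and the iron sensors IREB2, ACO1 and FBXL5. Their probes were found through the RefSeq accession printed for each probe, which gave 19 of the 41000 probes on the array for all 9 genes. Of these 19 probes, 18 were well above background on all 4 arrays, and the SLC40A1 probe was not so on any.

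The 4 groups were wild-type cells (WT), cells with both alleles of the Arp5 gene disrupted (Arp5 KO), an Arp8 gene knockout (Arp8 KO), and a culture named for overexpression of Arp8 (Arp8 OE), for which the sources used here do not describe the construct. Arp5 and Arp8 are actin-related subunits of the INO80 chromatin remodeling complex, and the study asked whether that complex is needed for gene expression under oxidative stress caused by heme. Each group had 1 array, so no difference was tested and none was checked against a biological replicate. The sample titles and the treatment protocol gave heme, in the protocol at 20 uM for 12 hours for every culture, but a treatment label of both knockouts read no heme, so that genotype and treatment cannot be told apart in them.

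The labels were checked first. ACTR5, which encodes Arp5, lay 19.3-fold below WT in Arp5 KO, where 0.0247% of all probes tested were as low or lower. Background correction by normexp brought this log2 difference from -4.27 to -2.79. Both probes of ACTR8, which encodes Arp8, were lower in Arp8 KO, by log2 differences of -0.53 and -0.68. Neither passed 2-fold, and 13.1% and 9.02% of all probes tested were as low or lower. The ACTR8 values thus bear less on the Arp8 KO label than ACTR5 does on that of Arp5 KO. On the array labelled Arp8 OE, ACTR8 lay at 0.02 and -0.01 against WT, so ACTR8 was not higher on it and the name is used as a label only. All 9 pre-B marker genes examined, among them CD79A and PAX5, were well above background on every array, with a summed signal between 200545 and 249827. Their levels were not all alike. In Arp8 KO DNTT was 3.43-fold above WT, where 0.716% of all probes tested were as high or higher. VPREB1 was 2.39-fold below WT there, with 2.79% as low or lower, and the other markers stayed within 2-fold. Of 5 erythroid marker genes, 1 or 2 were well above background on an array, with a summed signal between 100.1 and 131.8, and the probes of HBB and ALAS2 were so on none. Of 5 macrophage marker genes 2 or 3 were, with a summed signal between 463.2 and 709.3, and CD163 was on none.

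Iron is needed for heme and for many enzymes, and free iron promotes the formation of reactive oxygen species. Cells take up iron bound to transferrin through the transferrin receptor TFRC, move it out of the endosome through the transporter SLC11A2 (DMT1), keep the surplus inside ferritin, a hollow shell built of heavy (FTH1) and light (FTL) chains, and release iron through the exporter ferroportin (SLC40A1). The heavy chain oxidizes ferrous iron on entry, and the light chain helps the iron core to form. NCOA4 carries ferritin to the lysosome for breakdown. The iron regulatory proteins ACO1 (IRP1) and IREB2 (IRP2) bind iron-responsive elements, short RNA hairpins. In the 5′ part of ferritin and ferroportin messages they block translation, and in the 3′ part of the TFRC message they stabilize the RNA. When iron is plentiful, FBXL5 directs IREB2 to degradation. Ferritin genes are also transcribed under control of NRF2 and BACH1, the factors that act on the heme oxygenase gene HMOX1.

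The iron-responsive element can be seen in the light chain gene. The stretch from base 26 to base 50 after its start lies at chr19:48965334-48965358 on the plus strand of GRCh38.p14 in RefSeq. It is shown because it holds letters of the hairpin to which the sensors bind. The match is in capitals (a C, 5 bases of any kind, CAGTG and 1 base of any kind).

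FTL: tctcttgCTTCAACAGTGTttggac

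Of 35116 promoter entries of the same reference, 1.67% held this pattern, read in the direction of transcription, in the first 50 bases. Entries were found for 8 of the 9 genes, and there was none for FTH1. The bases before the start of TFRC and FTL are shown next. The receptor was taken because its transcript varied widely between the arrays, and the light chain because it varied less than the receptor. Capitals mark ACGTG, the core of a hypoxia response element, on either strand. The TFRC stretch is chr3:196082091-196082240 on the minus strand and the FTL stretch is chr19:48965159-48965308 on the plus strand, and both run from base -150 to base -1 before the start.

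TFRC: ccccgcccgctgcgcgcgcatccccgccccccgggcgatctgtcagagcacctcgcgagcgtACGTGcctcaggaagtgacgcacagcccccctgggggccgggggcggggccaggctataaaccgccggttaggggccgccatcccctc

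FTL: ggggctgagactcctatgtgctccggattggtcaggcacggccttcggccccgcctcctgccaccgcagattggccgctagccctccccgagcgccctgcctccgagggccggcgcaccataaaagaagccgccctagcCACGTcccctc

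This core was found on either strand in 18.5% of all promoter entries over the 250 bases before the start. Among the 8 genes with an entry it was found in TFRC, FTL and FBXL5, and FTH1 could not be searched. The antioxidant response core TGACNNNGC, found in 10.9% of entries, was present in that window in FBXL5 only among these 8 genes. The E-box CACGTG, which contains ACGTG, was found in 6.34% of entries and among these genes in FBXL5 only. A match describes letters and not a binding site. Bases further upstream were not searched, so the lack of a match covers that window only.

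Values below are log2 differences of the processed spot signal after each array was divided by its own 75th percentile (735.1 on the WT array, 739.6 on Arp5 KO, 655.7 on Arp8 KO and 647.4 on Arp8 OE), so a ratio of the raw signals is not the fold given. For probes printed at 10 positions, the deviation of a single spot's difference from the probe mean stayed in 95% of cases under 0.064 to 0.086 for bright probes in the 3 comparisons with WT. It stayed under 0.10 to 0.12 for probes of middle level and under 0.23 to 0.27 for dim probes. That error covers the position on the array and nothing between cultures.

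FTH1, the ferritin heavy chain, showed the widest range of the 9 genes. Of its 5 probes, 4 were 3.27-fold to 3.77-fold below WT in Arp8 KO, 1.72-fold to 1.89-fold lower in Arp8 OE and 1.21-fold to 1.30-fold lower in Arp5 KO. They gave 1 order on the arrays, from WT at the top through Arp5 KO and Arp8 OE to Arp8 KO, and every step exceeded the single-spot error. The fifth probe gave a smaller difference in Arp8 KO and none beyond the error in Arp8 OE.

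The processed signal of A_32_P111565 was 52493 on the WT array, 40694 on Arp5 KO, 12430 on Arp8 KO and 24521 on Arp8 OE. That of A_32_P820503 was 53796, 43911, 12878 and 25154 in the same order, and that of A_24_P58337 was 66699, 53645, 18174 and 34081. The dimmest FTH1 probe, A_24_P919330, read 13144 on the WT array, 10948 on Arp5 KO, 3139 on Arp8 KO and 6117 on Arp8 OE. On all of them the Arp8 KO array was lowest and the Arp8 OE array lay between it and Arp5 KO. The log2 differences from WT were -1.71, -1.90, -1.91 and -1.90 in Arp8 KO for A_24_P58337, A_24_P919330, A_32_P111565 and A_32_P820503. Of all probes tested in that comparison, 1.57%, 1.20%, 1.18% and 1.20% were as low or lower.

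The scanner software took the brightest spots from its low-gain scan. This held for 3 of these 4 probes on the WT, Arp5 KO and Arp8 OE arrays but not on Arp8 KO. The probe A_24_P919330 was read at full gain on all 4 arrays, and its difference in Arp8 KO was -1.90. The remaining FTH1 probe, A_32_P342064, was read from the low-gain scan on all 4 arrays, and its difference there was -0.70. The part of the gain in these values was not tested.

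The fifth FTH1 probe, A_32_P342064, read 40393 on the WT array, 47238 on Arp5 KO, 22137 on Arp8 KO and 36817 on Arp8 OE. It was lowest in Arp8 KO as well, by a log2 difference of -0.70 from WT, but lay at 0.22 in Arp5 KO and 0.05 in Arp8 OE. Because of this probe the mean over all 5 was -1.63 ± 0.52 (SD between 5 probes) in Arp8 KO, against -1.86 ± 0.10 (SD between 4 probes) without it, a choice made after its values were seen. Among 1038 genes with at least 3 probes well above background on both arrays, the median SD between probes was 0.21 and the 90th percentile was 0.47, so the 5 FTH1 probes disagreed more than most. One spot adjacent to A_32_P342064 was over 2-fold brighter on Arp8 KO than on every other array, and its part in the result was not tested. The FTH1 gene also has many near-identical processed copies in the genome, and which of them each probe reads was not tested.

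The knockouts were also set against each other and against Arp8 OE, in comparisons that share arrays with those above. FTH1 was lower in Arp8 KO than in Arp5 KO by -1.39 to -1.63 on the 4 probes that behave alike and by -0.92 on A_32_P342064. Here 4 of 18 member probes were over 2-fold lower, against 3.18% of all probes tested. Against Arp8 OE, Arp8 KO was lower by -0.75 to -0.999 on all 5 probes, with a mean of -0.93 ± 0.10 (SD between 5 probes). No member probe passed 2-fold there, where 3.78% of all probes were over 2-fold lower, and the 5 FTH1 probes passed 1.5-fold, against 9.44%. Between Arp8 KO and Arp8 OE the 5 probes thus spread less (0.10) than the 90th percentile over genes (0.37), unlike in the comparison with WT.

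**Figure D1:**
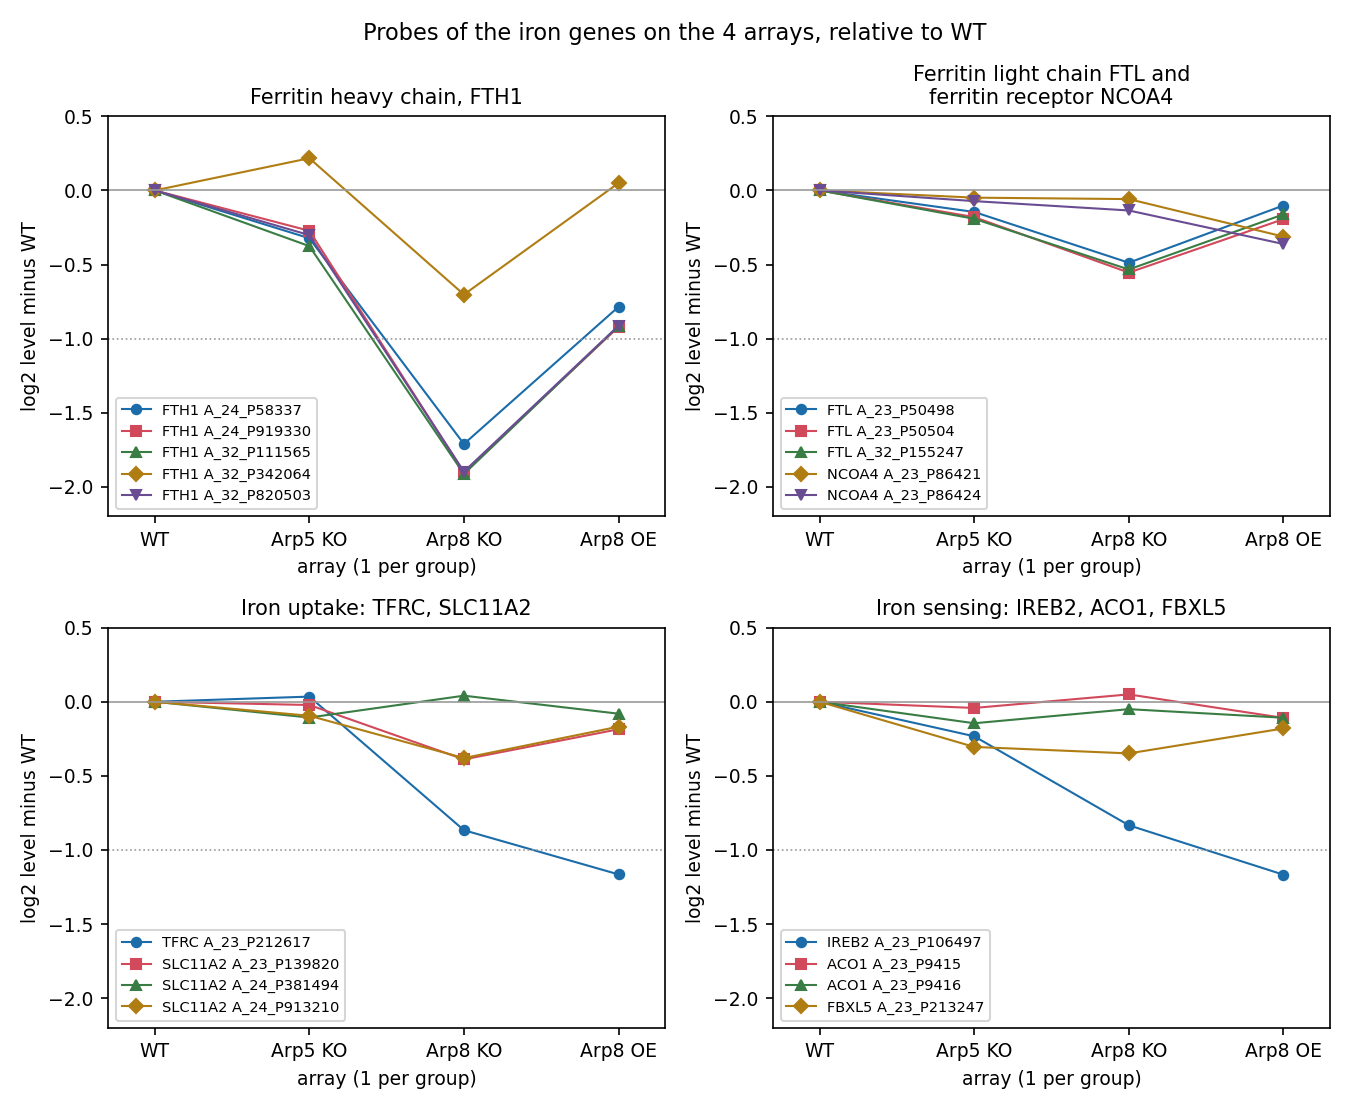
Log2 level of each probe minus its WT level (vertical axis) on the 4 arrays (horizontal axis), with 1 point per array and the dotted line at 2-fold lower. In the FTH1 panel 4 probes run together down to between -1.71 and -1.91 in Arp8 KO while A_32_P342064 stays apart at -0.70, and TFRC and IREB2 are lowest in Arp8 OE; SLC40A1 is not drawn because it was not well above background.

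FTL, the ferritin light chain, moved less than FTH1 and its 3 probes agreed. A_23_P50498 read 21937 on the WT array, 19952 on Arp5 KO, 13954 on Arp8 KO and 18003 on Arp8 OE. The signals of A_23_P50504 were 17528, 15563, 10645 and 13494, and those of A_32_P155247 were 20841, 18360, 12844 and 16407. Arp8 KO was lowest on every FTL probe, at 1.40-fold to 1.47-fold below WT, with a mean log2 difference of -0.53 ± 0.03 (SD between 3 probes). The mean was -0.17 ± 0.02 in Arp5 KO and -0.15 ± 0.05 in Arp8 OE. These small differences exceeded the single-spot error on each probe, but Arp5 KO and Arp8 OE could not be ordered, since their gap was at most 0.044 on any FTL probe. No FTL probe passed 1.5-fold in any comparison with WT.

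The heavy and light chains differed from WT by unlike amounts. The FTL mean of -0.53 in Arp8 KO lay above the value of every FTH1 probe, and that of -0.15 in Arp8 OE lay above 4 of the 5. In Arp5 KO the FTL mean of -0.17 stood beside -0.27 to -0.38 on 4 FTH1 probes and 0.22 on the remaining one. These are differences of separate probes, and the amounts of the chains were not compared.

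NCOA4, which delivers ferritin to lysosomes, had a pattern of its own among the storage genes. Its probe A_23_P86424 read 1169 on the WT array, 1119 on Arp5 KO, 949.5 on Arp8 KO and 801.4 on Arp8 OE, and A_23_P86421 read 728.1, 708.0, 623.6 and 516.7. The Arp8 OE array was lowest on both probes, by log2 differences from WT of -0.36 and -0.31. Arp5 KO lay at -0.07 and -0.05, within the error. The Arp8 KO array lay at -0.14 and -0.06, of which the first exceeded the error, and could not be ordered against Arp5 KO.

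HMOX1, whose product frees iron from heme, is given for comparison, as the gene whose induction the study followed. No group had both a treated and an untreated array. The values are therefore differences between arrays and do not measure a response to heme. Relative to WT it was 4.16-fold lower in Arp8 OE, 7.52-fold lower in Arp8 KO and 7.88-fold lower in Arp5 KO. Like HMOX1, FTH1 was highest in WT on 4 probes, but the other arrays came in another order, with Arp5 KO closest to WT for FTH1 and Arp8 OE closest for HMOX1. The knockouts could not be ordered for HMOX1, since their gap of 0.068 on the log2 scale was within the error.

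TFRC, the transferrin receptor, was lower in Arp8 KO and Arp8 OE, and in Arp5 KO it did not differ from WT beyond the error. Its probe, A_23_P212617, was printed at 10 positions. The processed signal ran from 3397 to 3757 with a median of 3658 over 9 usable spots in WT, from 3573 to 3862 with a median of 3794 over 9 spots in Arp5 KO, from 1700 to 1817 with a median of 1787 over 7 spots in Arp8 KO, and from 1335 to 1464 with a median of 1437 over 9 spots in Arp8 OE. The spots of WT and Arp5 KO overlapped, while those of Arp8 KO and Arp8 OE lay below both and did not overlap each other. The log2 difference from WT was 0.03 ± 0.06 (SD between 9 spots) for Arp5 KO, -0.87 ± 0.03 (SD between 7 spots) for Arp8 KO and -1.16 ± 0.02 (SD between 9 spots) for Arp8 OE. This made TFRC 2.24-fold lower in Arp8 OE and 1.82-fold lower in Arp8 KO, and 1.63% of all probes tested in Arp8 OE and 5.84% in Arp8 KO were as low or lower. One spot adjacent to this probe was bright on the Arp8 KO array alone, among the neighbours of all its positions. Spots of 1 array share the RNA, so their SD says nothing about other cultures.

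**Figure D2:**
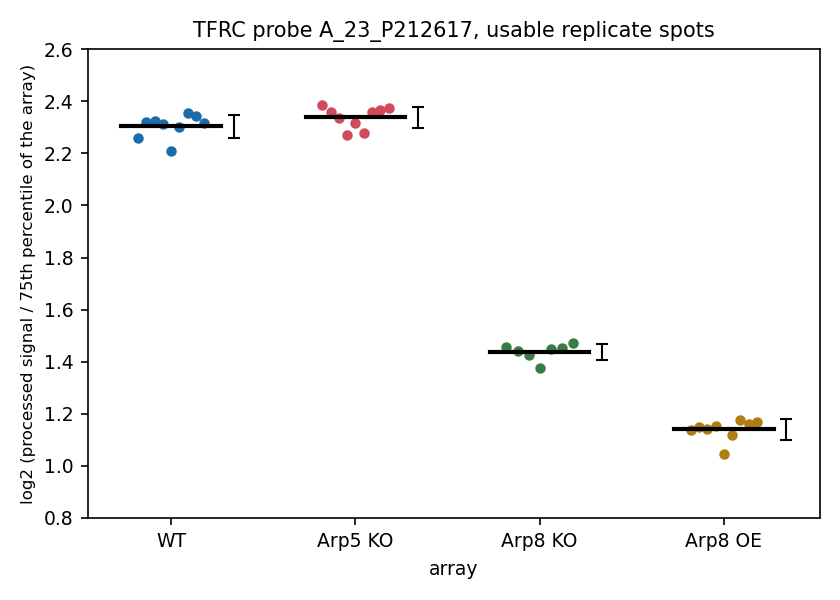
Log2 of the processed signal over the array's 75th percentile (vertical axis) for each usable spot of the TFRC probe on the 4 arrays (horizontal axis), with the mean as a line and the SD between spots as a bar. WT and Arp5 KO overlap, and the 7 spots of Arp8 KO and 9 spots of Arp8 OE form separate groups below them.

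Set against Arp8 OE in place of WT, TFRC was 2.30-fold higher in Arp5 KO, the only member probe past 2-fold there, where 2.08% of all probes were over 2-fold higher. In Arp8 KO it was 1.23-fold higher than in Arp8 OE.

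SLC11A2, the endosomal iron transporter, had 3 probes, none of which passed 1.5-fold against WT. A_23_P139820 read 386.3 on the WT array, 382.8 on Arp5 KO, 263.2 on Arp8 KO and 299.2 on Arp8 OE, and in Arp8 KO it was 1.31-fold lower than in WT. A_24_P913210 read 77.1, 72.7, 52.9 and 60.4 and was 1.30-fold lower in Arp8 KO, whereas A_24_P381494 read 118.2, 110.4, 108.5 and 98.5 and lay at 0.04 on the log2 scale there. The last probe thus did not share the lower value of the other 2, whose log2 differences from WT in Arp8 KO (-0.39 and -0.38) exceeded the error for dim probes. On A_24_P381494 and A_23_P139820 no neighbouring pair in the order of the arrays differed beyond the error. On A_24_P913210 the step from Arp8 OE to Arp8 KO did so narrowly, at 0.2116 against 0.2088. Background correction by normexp brought the Arp8 KO difference of A_24_P913210 from -0.38 to -0.05.

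SLC40A1, the iron exporter ferroportin, stayed under the well-above-background level on all 4 arrays. Its probe A_23_P102391 read 5.04 on the WT array, 4.75 on Arp5 KO, 3.93 on Arp8 KO and 4.96 on Arp8 OE. No fold is given for it, and a transcript below the detection of the array was not distinguished from none.

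IREB2 (IRP2), the sensor that is degraded when iron is plentiful, was lower on the same arrays as TFRC. Its only probe, A_23_P106497, read 591.3 on the WT array, 506.2 on Arp5 KO, 296.0 on Arp8 KO and 232.0 on Arp8 OE. Both Arp8 arrays lay well below the other 2, with Arp8 OE lowest, and each step in this order exceeded the error. The log2 difference from WT was -1.17 in Arp8 OE, where TFRC was at -1.16. It was -0.83 in Arp8 KO and -0.23 in Arp5 KO, where TFRC was at -0.87 and 0.03. IREB2 was 2.24-fold lower in Arp8 OE, and 1.61% of all probes were as low or lower. With normexp it no longer passed 2-fold there, at -0.90.

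ACO1 (IRP1), which is an aconitase when it holds an iron-sulfur cluster, differed less from WT than IREB2 on both Arp8 arrays. The probe A_23_P9416 read 2478 on the WT array, 2255 on Arp5 KO, 2135 on Arp8 KO and 2026 on Arp8 OE, and A_23_P9415 read 611.1, 597.3, 564.2 and 499.1. After scaling, the log2 differences from WT lay between -0.15 and 0.05 in all 3 comparisons. Those of A_23_P9416 in Arp5 KO (-0.15) and of both probes in Arp8 OE (-0.11 each) exceeded the error for probes of middle level, and the others did not. FBXL5, the subunit of a ubiquitin ligase that senses iron, read 1075 on the WT array, 875.3 on Arp5 KO, 753.0 on Arp8 KO and 835.4 on Arp8 OE on A_23_P213247. It was highest in WT, by log2 differences of -0.35 in Arp8 KO, -0.30 in Arp5 KO and -0.18 in Arp8 OE, and the gap between the knockouts was within the error.

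Over the 18 member probes tested, none was past 2-fold in Arp5 KO against WT, where 2.01% of all 24285 probes tested were lower and 1.69% higher. The Arp8 KO comparison had 4 over 2-fold lower, all of FTH1, against 4.35% of 24578 probes. That of Arp8 OE had 2 over 2-fold lower, TFRC and IREB2, against 2.15% of 24177 probes. Past 1.5-fold, 7 were lower in Arp8 KO, the 5 FTH1 probes with TFRC and IREB2, against 11.2% of all probes. For Arp8 OE 6 were lower, against 5.67%, and for Arp5 KO none was, against 4.69%. No member probe was over 1.5-fold higher than WT on any array, where 10.0% of all probes were in Arp8 KO, 7.93% in Arp8 OE and 4.15% in Arp5 KO. None was past 4-fold, a size by which 1.09% of all probes were lower in Arp8 KO and 0.629% in Arp8 OE. Probes of 1 gene are not separate findings, and by gene 2 passed 2-fold in Arp8 OE and 1 in Arp8 KO.

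The median over the 18 probes was -0.51 in Arp8 KO, -0.19 in Arp8 OE and -0.15 in Arp5 KO, where the medians of all probes tested were 0.03, 0.00 and 0.00. Below WT lay 17 probes in Arp8 OE and 16 in each knockout. The 3 comparisons share the WT array, so a probe that reads high on WT is low in each of them.

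**Figure D3:**
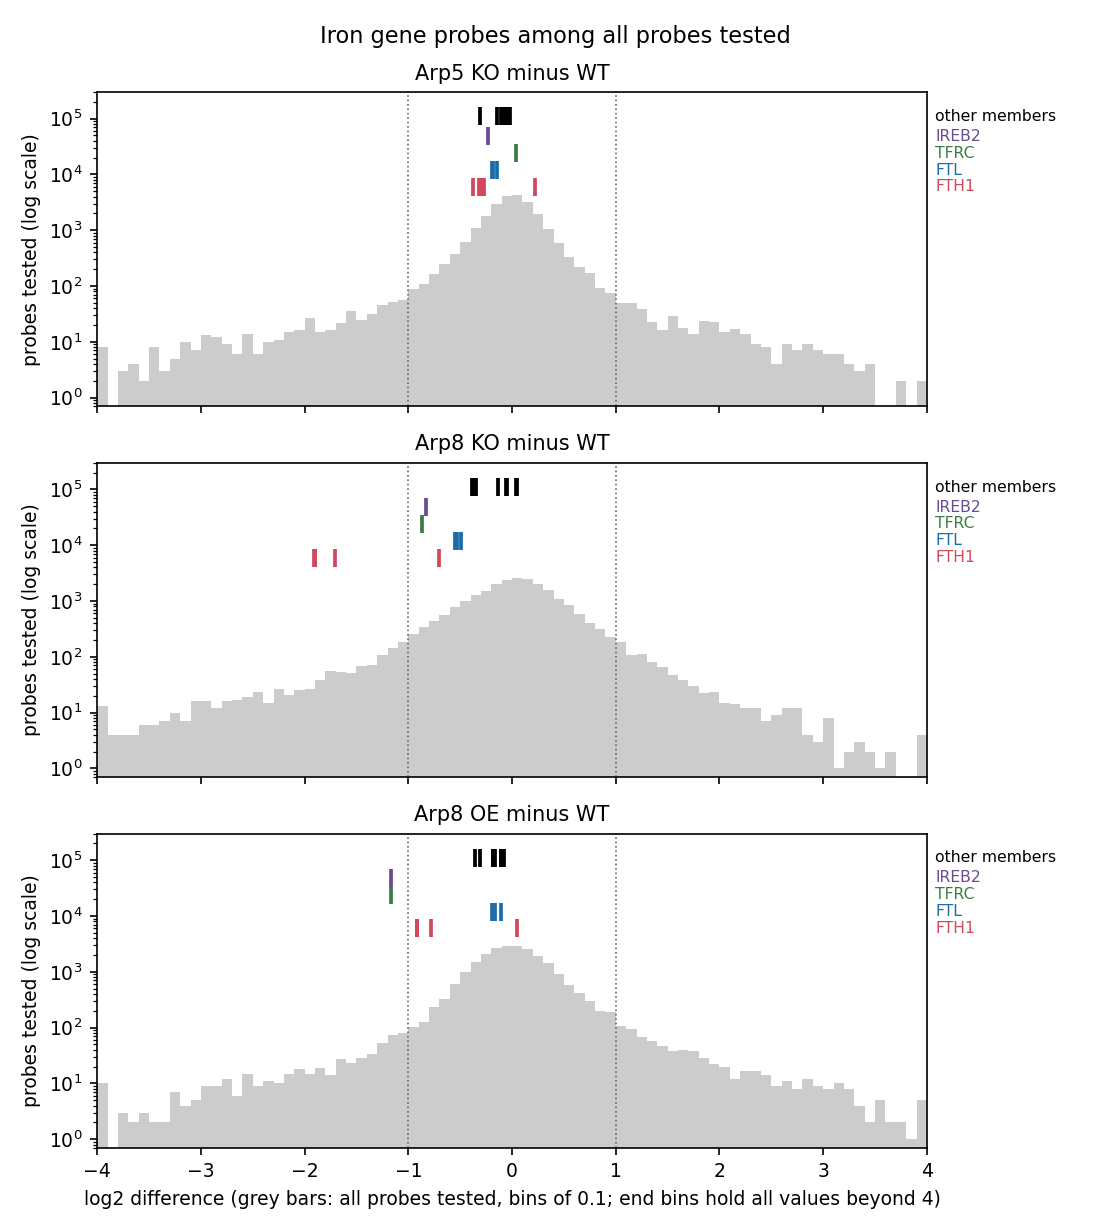
Number of probes tested (grey bars, log axis) by log2 difference from WT (horizontal axis, bins of 0.1) in the 3 comparisons, with the member probes as ticks above and dotted lines at 2-fold. FTH1 ticks lie at -1.71 to -1.91 in Arp8 KO, and the TFRC and IREB2 ticks at -1.16 and -1.17 in Arp8 OE.

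To find transcripts with a pattern like FTH1, the 3 log2 differences from WT of its widest-ranging probe, A_32_P111565, were compared with those of 16571 probes of other named genes well above background on all arrays. The 5 nearest were SPEG, HIC1, SLC22A16, LEPROT and TSPAN13, at Euclidean distances of 0.26, 0.28, 0.36, 0.38 and 0.40. Of the other FTH1 probes, 3 lay nearer, at 0.076, 0.10 and 0.25, and A_32_P342064 lay at 1.66. SPEG, the closest, was at -2.17 in Arp8 KO, -0.97 in Arp8 OE and -0.36 in Arp5 KO. The likeness rests on 3 differences with 1 shared reference.

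The wider iron pathway was examined over 33 further genes with 61 probes, which cover transferrin and its regulators, metal transporters, iron chaperones, and the making of iron-sulfur clusters. Probes past 2-fold against WT were counted beside the shares of all probes tested. For Arp5 KO 1 of 48 probes tested was higher and none lower, against 1.69% higher and 2.01% lower among all probes. For Arp8 KO 1 of 47 was higher and 1 lower, against 3.37% higher and 4.35% lower. For Arp8 OE 2 of 46 were higher and none lower, against 2.96% higher and 2.15% lower. These small counts were not tested against those shares. The medians of this list in the 3 comparisons were 0.05, -0.06 and -0.02.

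The differences over 2-fold higher were bounds, since WT was under the level of detection. BDH2, an enzyme linked to the making of a mammalian siderophore, was at least 2.93-fold higher in Arp8 KO and at least 2.37-fold higher in Arp8 OE on A_24_P80500, but its brighter probe A_23_P92490 lay at 0.19 and 0.08. CP, the ferroxidase ceruloplasmin, was at least 3.28-fold higher in Arp8 OE, with a signal of 7.94 in WT and 65.9 in Arp8 OE. HFE, a partner of the transferrin receptor, was at least 6.80-fold higher in Arp5 KO on A_24_P289648, where 4 adjacent spots were bright on the Arp5 KO array alone. On its other 4 tested probes, 2 of them giving bounds, HFE lay between -0.78 and -0.19 in Arp5 KO. The part of the adjacent spots in this value was not tested.

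The next probes of the same list were very bright and were picked after their values were seen. PCBP1, an iron chaperone that loads ferritin, read 41810 in WT and 32703 in Arp8 KO on A_23_P68040, a log2 difference of -0.19, and GLRX5, which acts in iron-sulfur cluster assembly, read 23979 and 22551 on A_23_P65370, a difference of 0.08. Both were read from the low-gain scan on all 4 arrays, so they cannot show the effect of a change of scan between arrays.

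Other transcripts with an iron-responsive element were represented by 5 genes with 12 probes, among them ALAS2, EPAS1, CDC14A and CDC42BPA. The probes of ALAS2 and CDC14A were well above background on no array, so that 3 of the 5 genes were tested, with 8 probes in Arp8 KO and 7 in each of the other comparisons. None of these probes passed 2-fold against WT, where among all probes 4.35% were lower and 3.37% higher in Arp8 KO, 2.15% lower and 2.96% higher in Arp8 OE, and 2.01% lower and 1.69% higher in Arp5 KO. The medians were -0.24 in Arp8 KO, -0.24 in Arp8 OE and -0.06 in Arp5 KO. EPAS1, which encodes the hypoxia factor HIF-2α, read 377.3 on the WT array, 278.8 on Arp5 KO, 236.0 on Arp8 KO and 206.4 on Arp8 OE on A_23_P210210, log2 differences of -0.45, -0.51 and -0.69. Its other probe, A_23_P430120, was well above background on Arp8 KO alone, where it gave a bound of 0.20 above WT, opposite in sign to the first.

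**Figure D4:**
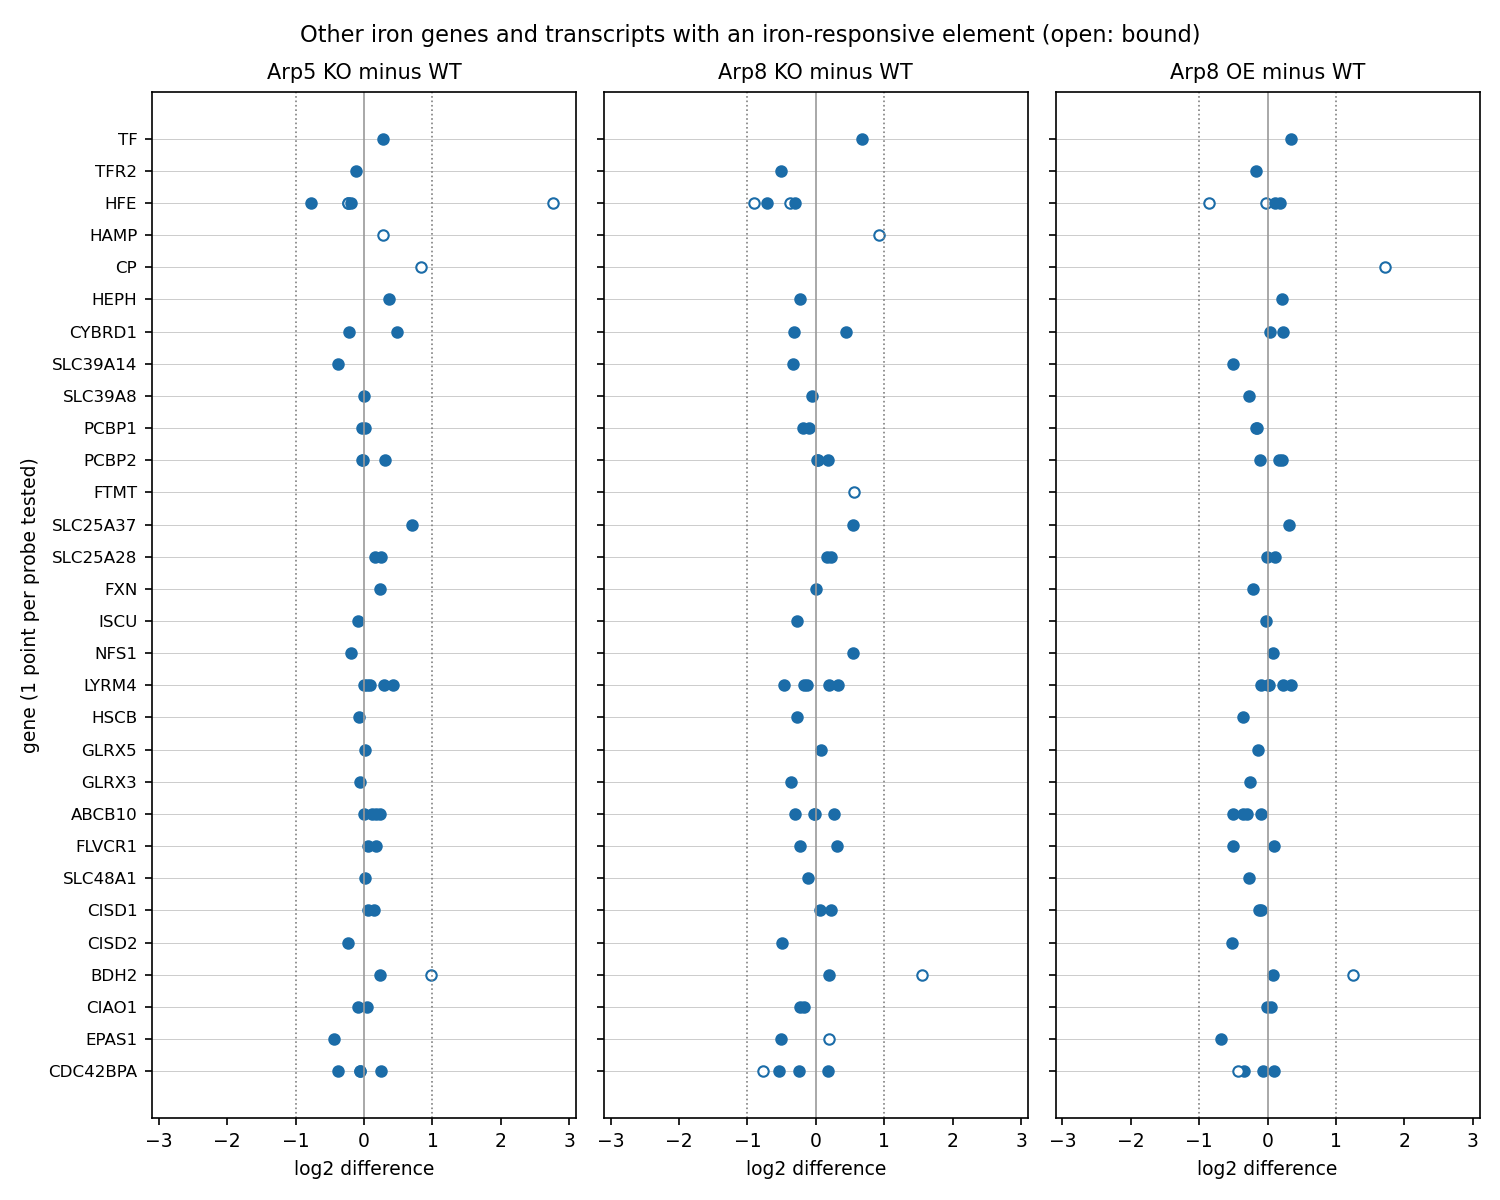
Log2 difference from WT (horizontal axis) of tested probes of further iron genes and of transcripts with an iron-responsive element (rows, 1 per gene shown) in the 3 comparisons, with open points for bounds and dotted lines at 2-fold. All filled points shown lie within 2-fold, and the open points past it are those of HFE, BDH2 and CP.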

How the data were processed

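RNA of 4 Nalm-6 cultures was dyed with Cy3 and measured on 1 slide of 4 one-colour Agilent arrays. Spot intensity was deposited by the authors as linear processed signals, from which Feature Extraction (10.10.1.1 in the file headers) had subtracted background and spatial trend. Its deposited flags (other values, 0 or 1) mark detection, saturation, outliers and low-gain readings, and no spot was saturated. The authors' series matrix gives these intensities multiplied by 1 factor per array (1.99 to 2.29). Each array had 43376 spots other than controls.

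Levels were log2 ratios of the processed signal to the 75th percentile of its array. Outlier spots (69 to 76 per array) were left out and spots of a probe were averaged. A probe was tested if at least 50% of its spots were well above background on 1 of the 2 arrays compared. A probe below that level was raised to the lowest detected level of its array where it lay under it, which gave a bound. The 50% rule was met by 55.8% to 57.4% of probes. Levels for the error were dim below -1, bright above 2 and middle between, on the log2 scale.

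Of 41000 probes, 27210 were matched by accession to RefSeq symbols of GRCh38.p14. The file headers name hg19, so positions from the array are not given. Coordinates of the printed sequences are those of GRCh38.p14. Promoter sequences are from RefSeq. Probe sequences were not used here. Genes were named by a rule: all 9 members, ACTR5, ACTR8 and HMOX1, genes of 2 further lists past 2-fold, and the 5 nearest patterns. Some genes of these lists are counted but not reported here by name or drawn. EPAS1, PCBP1 and GLRX5 were added after their values were seen. The members and lists were chosen with earlier results of these data known.

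There was no test, since each group had 1 array, and this number limits the precision. The calculation was tested on simulated data. Alternatives used median scaling, cyclic loess, quantile normalization or normexp on the median spot signal (limma 3.58.1, offset 50), the series matrix, other filters, thresholds of 1.5-fold and 4-fold, or Arp8 OE as reference array, or omitted probes with an adjacent spot (within 20 pixels) over 2-fold brighter on a single array.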

Additional observations from a re-analysis of the deposited data

How the results depend on the processing

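The counts of iron gene probes past 2-fold against WT, which were 4 for Arp8 KO, 2 for Arp8 OE and 0 for Arp5 KO, were unchanged by median scaling, cyclic loess, quantile normalization, the series matrix, both other filters on dim probes and the omission of probes beside a bright spot. Normexp moved the count in Arp8 OE to 1, because IREB2 came to -0.90. With a 4-fold threshold the count was 0 for both Arp8 arrays, and with a 1.5-fold threshold they were 7 for Arp8 KO and 6 for Arp8 OE. With the Arp8 OE array replacing WT as reference, 1 probe passed 2-fold in Arp5 KO (TFRC, higher) and 0 in Arp8 KO. Of 465 recomputed differences of member probes, 46 moved by more than the median SD of a single-spot difference, 34 of them with that change of reference. Signs changed in 2 differences with normexp and in 1 each with quantile normalization and median scaling. With the Arp8 OE reference 16 of 36 changed sign. Among them TFRC and IREB2 in Arp8 KO went from -0.87 and -0.83 to 0.30 and 0.33. No difference past 2-fold changed sign, but those of Arp8 OE itself could not be recomputed with that reference. The 4 FTH1 probes that agree stayed between -1.69 and -1.95 in Arp8 KO under every alternative but that reference. No scaling moved the median of all probes by more than 0.035. No paired analysis was possible because each group has 1 array, and for the same reason no replicate could be left out. Low signals such as those of SLC11A2 and SLC40A1 limit what can be said of these genes.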
